A study of Mus musculus with 8 samples.

Results

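The T-box factors are DNA-binding proteins that share the domain first described in Brachyury, and 10 of their genes were followed here in mouse embryonic stem (ES) cells before and after retinoic acid (RA): T (Brachyury), Eomes, Tbx1, Tbx2, Tbx4, Tbx5, Tbx6, Tbx15, Tbx18 and Tbx20. They were chosen by name, as every probe on the array that carries one of these gene names and is no control spot. All 10 were on the array, with 14 probes of 55681, out of 36406 gene names. RNA came from E14Tg2A.4 cells, a feeder-independent ES cell line, either not treated or treated with RA for 72 h, with 4 biological replicates of each (RA at 1 µM and without leukemia inhibitory factor, per the study's methods). The methods give this treatment as one for neuronal differentiation. All 8 samples come from this 1 line, and an effect of RA cannot be told apart from that of removing the factor, which holds ES cells in self-renewal.

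T-box factors bind a short DNA element through the shared domain and either activate or repress their targets. In the embryo they act in turn: Eomes and T when mesoderm and endoderm leave the primitive streak, Tbx6 in the paraxial mesoderm that becomes somites, and the others later, when heart, pharyngeal arches, limbs and body wall take shape. RA is itself a signal that patterns these tissues, and many developmental regulators, T-box genes among them, are held silent by Polycomb proteins in ES cells.

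Each sample was hybridized to a 1-colour array, whose spots are the brighter the more of their transcript the sample holds. Values below are log2 intensities relative to the 75th percentile of the same array, and a value of 0 therefore marks a spot as bright as that percentile. A level may be compared between arrays for 1 probe, never between probes. A gene took its brightest probe over the 8 arrays and was called higher or lower at an adjusted p under 0.05 and a fold above 1.5 by limma. On the 8 arrays, 56.7% to 62.7% of spots were well above background and no spot was saturated, and Pearson correlations of log2 values across probes above background on all 8, between arrays of 1 condition, ran from 0.979 to 0.994. A gene that was dim (not well above background) on all 4 arrays of 1 condition has no measured level there, so the text gives it as at least N-fold. The ES markers Pou5f1, Nanog and Esrrb were well above background in untreated cells, and all 8 genes of the ES cell list fell after RA.

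Of the 10 T-box genes, 6 rose after RA, none fell and 4 were not called by limma. At an unadjusted p under 0.05 the number lower was also 0. Over all genes, 13.9% were called higher and 22.1% lower by the same rule. The excess of lower calls depended on the scaling, with 5074 genes higher and 8057 lower here, 5697 and 5951 after quantile normalization, and 4680 and 4794 with the authors' values. The 6 that rose were Tbx1, Tbx2, Tbx5, Tbx15, Tbx18 and Tbx20, the regulators of heart, pharynx, limb and body wall other than Tbx4. The 3 genes of the primitive streak and paraxial mesoderm, T, Eomes and Tbx6, were among the 4 that were not called, together with Tbx4. For all 6 that rose, every RA-treated array lay above every untreated one, as it did for 15.2% of all genes. The median log2 fold change of the 10 genes was 2.54, or 2.01 with Tbx5 and Tbx20 at their bound, beside a median of -0.28 over all genes. Because the arrays measure a whole culture, fewer cells of a type and less RNA per cell cannot be told apart.

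**Figure D1:**
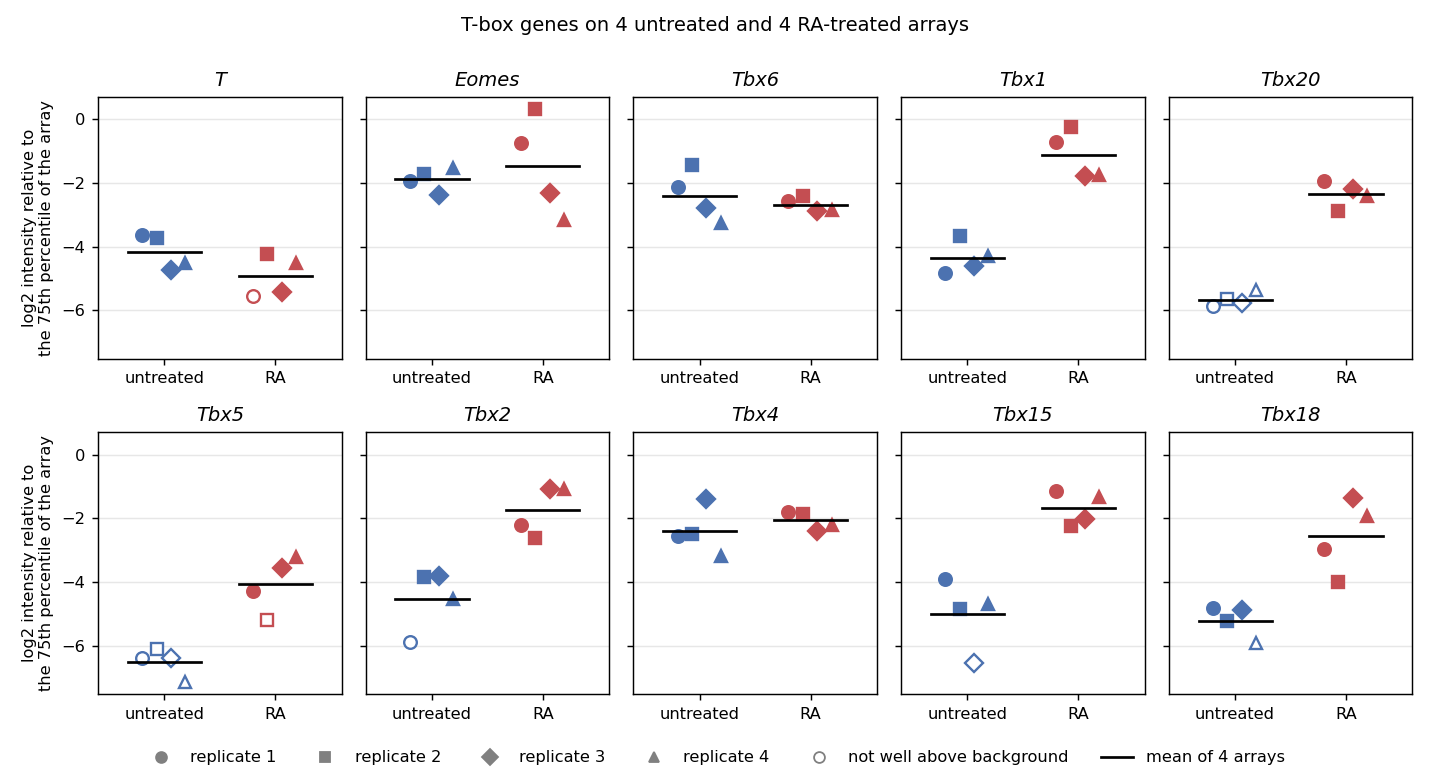
Log2 intensity relative to the 75th percentile of the array (vertical axis) of the brightest probe of each of the 10 T-box genes on 4 untreated (blue) and 4 RA-treated (red) arrays, with black lines at the means and open symbols for spots not well above background. The groups are separate for Tbx1, Tbx20, Tbx5, Tbx2, Tbx15 and Tbx18 and overlap for T, Eomes, Tbx6 and Tbx4.

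The genes of gastrulation come first. T, the founding T-box gene, marks the primitive streak and notochord and drives formation of posterior mesoderm. Its probe (mm9 chr17:8635302-8635361) read -3.62, -3.74, -4.74 and -4.53 in untreated replicates 1 to 4 and -5.56, -4.23, -5.44 and -4.50 in RA-treated replicates 1 to 4. The 2 groups overlapped, and the spot of RA-treated replicate 1 was not well above background. The difference was -0.78 ± 0.38 (SE, n = 4 per group), with a 95% interval from -1.64 to 0.08 and an adjusted p of 0.143 from limma. The interval held 0, and it also held falls of more than 1.5-fold.

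Eomes directs the definitive endoderm and early mesoderm of the streak and is also needed in trophoblast. Its brighter probe (mm9 chr9:118394425-118394484) read -1.94, -1.73, -2.39 and -1.52 in untreated cells, within 1 log2 unit of each other. After RA it read -0.75, 0.33, -2.31 and -3.16 in replicates 1 to 4. Replicates 1 and 2 were thus above all untreated arrays, replicate 3 was among them and replicate 4 was below them all. The mean difference was 0.42 ± 0.68 (SE), with a 95% interval from -1.12 to 1.96 and an adjusted p of 0.625. The sign turned, to -0.18, when RA-treated replicate 2 was left out. The standard deviation among RA-treated arrays, 1.56, was larger than that of 99.9% of the 30094 probes well above background on all of them, whose median was 0.201.

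A second Eomes probe was dim on most arrays. It read -3.99, -3.20, -5.88 and -6.99 in RA-treated replicates 1 to 4, against -4.96, -4.67, -5.66 and -4.89 in untreated cells. It was well above background on 1 untreated array and on RA-treated replicates 1 and 2, which were also the higher ones by the brighter probe, and its mean difference was 0.03 ± 0.75 (SE).

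Tbx6 acts downstream of the streak and turns cells towards paraxial mesoderm rather than neural tissue. Its brighter probe (mm9 chr7:133929000-133929059) read -2.13, -1.43, -2.78 and -3.27 in untreated cells and -2.57, -2.42, -2.90 and -2.84 after RA. The RA-treated values lay inside the untreated range, and the difference was -0.28 ± 0.36 (SE), with a 95% interval from -1.11 to 0.55 and an adjusted p of 0.544. The other probe, nearer the start of the gene, read -3.13, -3.01, -3.08 and -3.60 against -3.48, -3.69, -3.84 and -3.91. Its difference was -0.53 ± 0.18 (SE) with an adjusted p of 0.0459, and it was not called, since the fold of 1.44 does not reach 1.5. Both probes were well above background on all 8 arrays.

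The genes of pharynx and heart follow. Tbx1 is expressed in the pharyngeal endoderm, the core mesoderm of the arches and the second heart field, and is known for its loss in 22q11 deletion syndrome. Its probe (mm9 chr16:18581807-18581866) read -4.84, -3.67, -4.60 and -4.30 in untreated cells and -0.71, -0.26, -1.79 and -1.77 after RA. It was well above background on all 8 arrays, the lowest RA-treated value exceeded the highest untreated one by more than 1 log2 unit, and the increase was 9.33-fold (log2 fold change 3.22 ± 0.40, SE, adjusted p = 0.000282).

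Tbx20 is a regulator of the cardiac chambers and of motor neurons. Its brightest probe (mm9 chr9:24527750-24527809) read -5.86, -5.64, -5.78 and -5.37 in untreated cells, not well above background on any array. After RA it read -1.95, -2.89, -2.19 and -2.42, well above background on all 4 arrays. The increase was at least 8.45-fold (adjusted p = 1.2e-05), and the RA-treated arrays stayed within 1 log2 unit of each other. This was the lowest adjusted p among the 10 genes.

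Tbx20 has 2 further probes, which lie nearer the start of the gene and carry another transcript accession. Both were dim on all untreated arrays and well above background on 2 RA-treated arrays. The middle probe (mm9 chr9:24544715-24544774) read -7.17, -7.40, -7.65 and -7.13 against -4.23, -6.02, -5.52 and -5.36, an increase of at least 1.11-fold with an adjusted p of 0.00168. The probe nearest the start read -7.52, -7.93, -8.00 and -7.50 against -4.86, -6.51, -5.88 and -5.08 with an adjusted p of 0.00132, and no fold is given because its bound was under 1. All 3 probes had every RA-treated array above every untreated one, as had 13.9% of all probes. Of the 14 T-box probes 8 were called, all of them higher, beside 34.6% of all probes in either direction and 12.9% in the higher direction.

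The sequence of the probe nearest the start is shown because it measured Tbx20 far from the brightest probe. Capitals mark the longest run it shares with a probe of another T-box gene, 7 bases with that of Tbx2.
Tbx20 probe, mm9 chr9:24563177-24563236, minus strand: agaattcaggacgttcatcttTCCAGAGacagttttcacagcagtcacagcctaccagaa
No 2 probes of different T-box genes on the array shared a run longer than 10 of their 60 bases. Matches of a probe to whole transcripts of the other genes were not examined.

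Tbx5 works with Nkx2-5 and Gata4 in the heart and is required to start the forelimb. Its probe (mm9 chr5:120334087-120334146) read -6.37, -6.11, -6.40 and -7.14 in untreated cells, dim on all 4 arrays. After RA it read -4.29, -5.21, -3.56 and -3.21, and replicate 2 was the one not well above background. The increase was at least 2.58-fold (adjusted p = 0.00195). Of the 6 calls, this was the one lost under the most alternatives. With normexp background correction the log2 fold change was 0.47 (adjusted p = 0.0499, fold under 1.5), and within the 2 arrays of each condition on slide 2 it was 2.24 (adjusted p = 0.0604), against 2.64 (adjusted p = 0.0131) within slide 1.

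Tbx2 and Tbx4 are neighbours on chromosome 11, with no other protein-coding gene between them in the RefSeq table for GRCm38.p6. Tbx2 is a repressor that keeps chamber genes off in the atrioventricular canal and is also expressed in limb and eye. Its probe (mm9 chr11:85655391-85655450) read -5.90, -3.86, -3.81 and -4.53 in untreated cells and -2.23, -2.61, -1.07 and -1.08 after RA. The groups were apart by more than 1 log2 unit, although untreated replicate 1 was not well above background, and the increase was 6.86-fold (log2 fold change 2.78 ± 0.53, SE, adjusted p = 0.00317).

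Tbx4, which acts in the hindlimb and in lung mesenchyme, gave another picture. Its probe (mm9 chr11:85729510-85729569) read -2.55, -2.48, -1.39 and -3.18 in untreated cells and -1.80, -1.86, -2.39 and -2.21 after RA, well above background throughout. The RA-treated values lay within the untreated range. The difference was 0.34 ± 0.35 (SE), with a 95% interval from -0.46 to 1.13 and an adjusted p of 0.445, and its sign turned within slide 1, where it was -0.033. The upper end of that interval lies below the lower end of the Tbx2 interval, which ran from 1.57 to 3.99. The difference between the 2 genes was not itself tested.

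Tbx15 and Tbx18 are expressed in mesenchyme. Tbx15 shapes the skeleton and dermis, and its probe (mm9 chr3:99157901-99157960) read -3.91, -4.84, -6.55 and -4.69 in untreated cells, with replicate 3 not well above background. After RA it read -1.14, -2.25, -2.03 and -1.32. The lowest value after RA was more than 1 log2 unit above the highest untreated value, and the increase was 9.93-fold (log2 fold change 3.31 ± 0.53, SE, adjusted p = 0.00112).

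Tbx18 marks the epicardium, the sinus node and the mesenchyme around the ureter, and keeps the front and back of each somite apart. Its probe (mm9 chr9:87599514-87599573) read -4.82, -5.24, -4.89 and -5.92 in untreated cells, with replicate 4 not well above background, and -2.96, -4.01, -1.38 and -1.92 after RA. The groups did not overlap, and the increase was 6.28-fold with an adjusted p of 0.00438. The spread among RA-treated arrays was wide, with a standard deviation of 1.16 that exceeded 99.5% of probes well above background on all 4. Within slide 2, which holds RA-treated replicates 2 and 3, the log2 fold change was 2.89 with an adjusted p of 0.0656, and within slide 1 it was 2.41 with an adjusted p of 0.0160.

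**Figure D2:**
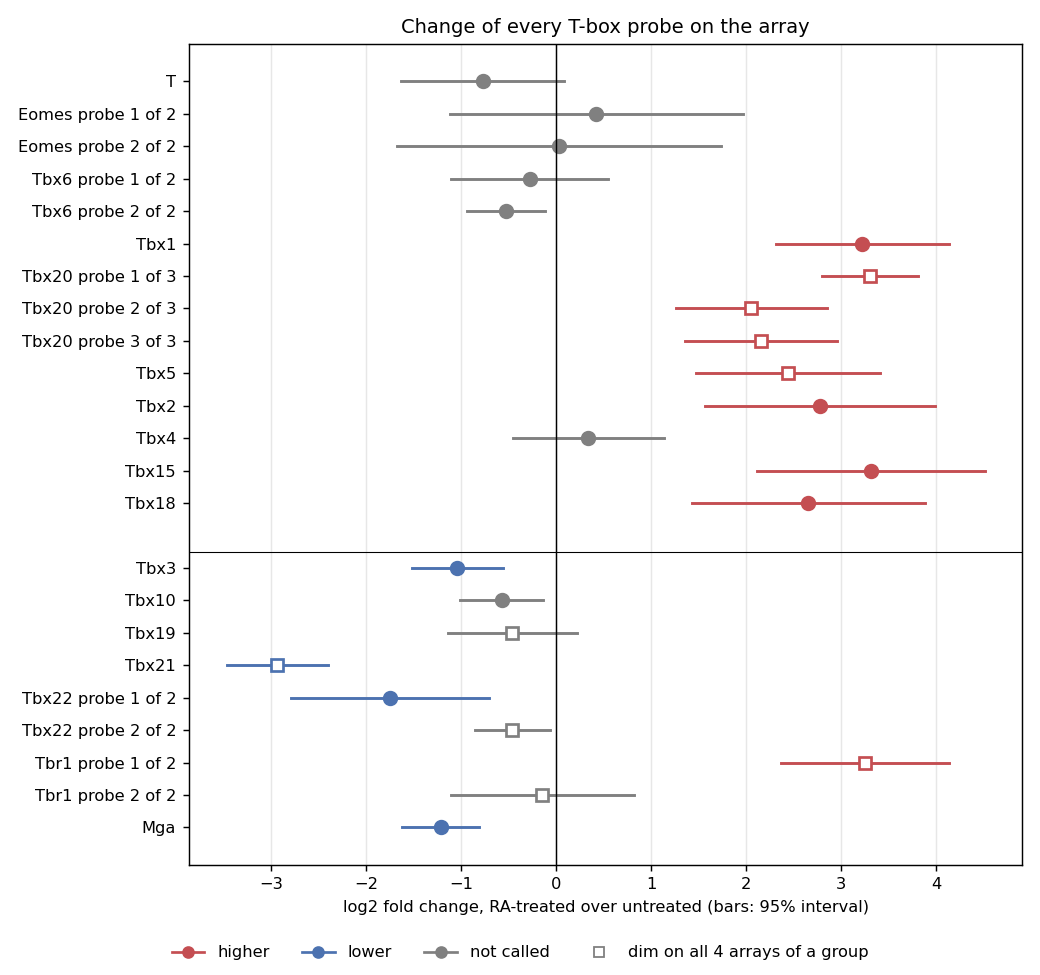
Log2 fold change of RA-treated over untreated cells (horizontal axis) with its 95% interval from limma for the 14 probes of the 10 T-box genes (above the line) and the 9 probes of the other T-box genes on the array (below it). Red marks probes called higher, blue lower and grey not called, and open squares mark probes dim on all 4 arrays of a condition, for which the size is only bounded. The 8 probes called among the 14 all lie to the right of 0.

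Normexp background correction adds an offset of 50 to each intensity, and the sizes moved more than the calls. The offset was not tested apart from the correction. With normexp the log2 fold change was 2.11 for Tbx1, 1.87 for Tbx15, 1.42 for Tbx2, 1.36 for Tbx20 and 1.23 for Tbx18, each still called, and 5 of the 10 genes were called higher in place of 6. With the authors' own processed log2 values the corresponding values were 2.24, 1.98, 1.58, 1.52 and 1.41, and 6 genes were called. Quantile normalization without the offset moved the median of all genes from -0.28 to 0.00 and left the T-box values between -0.50 for T and 3.54 for Tbx20.

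For 7 of the 10 genes, RefSeq promoters of GRCm38.p6 could be read, in 8 windows of 250 bases before the start, since Tbx1 has 2 starts, with no entry for Tbx2, Tbx5 and Tbx15. They are shown for genes that rose (Tbx1, Tbx18 and Tbx20) and for 2 that were not called (Eomes and Tbx6, without T and Tbx4). Promoters rich in CpG are typical of genes bound by Polycomb, but such binding is not measured by these arrays. A link between the number of CpG and the rise was not tested. Capitals mark each CpG.
Tbx1 promoter, GRCm38.p6 chr16:18588900-18589149, minus strand: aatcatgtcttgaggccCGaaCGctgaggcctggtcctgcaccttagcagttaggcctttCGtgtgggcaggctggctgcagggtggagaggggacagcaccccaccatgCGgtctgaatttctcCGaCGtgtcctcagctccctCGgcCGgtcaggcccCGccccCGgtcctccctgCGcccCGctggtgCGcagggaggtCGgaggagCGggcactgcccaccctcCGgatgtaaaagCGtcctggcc
Tbx18 promoter, GRCm38.p6 chr9:87731261-87731510, minus strand: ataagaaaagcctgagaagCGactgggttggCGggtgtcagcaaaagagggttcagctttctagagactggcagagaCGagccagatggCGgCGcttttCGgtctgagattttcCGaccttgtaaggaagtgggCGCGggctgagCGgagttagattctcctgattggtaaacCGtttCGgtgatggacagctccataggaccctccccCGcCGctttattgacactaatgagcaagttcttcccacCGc
Tbx20 promoter, GRCm38.p6 chr9:24774304-24774553, minus strand: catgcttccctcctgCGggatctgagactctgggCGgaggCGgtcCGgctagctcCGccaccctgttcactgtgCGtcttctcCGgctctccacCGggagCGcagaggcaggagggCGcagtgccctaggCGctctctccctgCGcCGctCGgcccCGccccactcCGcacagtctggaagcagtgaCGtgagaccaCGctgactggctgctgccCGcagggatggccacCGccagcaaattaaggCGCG
Eomes promoter, GRCm38.p6 chr9:118477939-118478188, plus strand: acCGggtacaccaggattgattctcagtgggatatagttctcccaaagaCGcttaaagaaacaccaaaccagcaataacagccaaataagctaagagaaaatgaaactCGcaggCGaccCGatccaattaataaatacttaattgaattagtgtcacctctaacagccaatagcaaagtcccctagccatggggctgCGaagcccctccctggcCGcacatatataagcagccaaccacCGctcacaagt
Tbx6 promoter, GRCm38.p6 chr7:126781233-126781482, plus strand: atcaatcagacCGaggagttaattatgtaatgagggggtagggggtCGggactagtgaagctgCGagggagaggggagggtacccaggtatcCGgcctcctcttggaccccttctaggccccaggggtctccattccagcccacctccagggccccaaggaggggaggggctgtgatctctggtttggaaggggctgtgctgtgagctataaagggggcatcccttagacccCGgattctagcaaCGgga
The promoters held 17 CpG for the first Tbx1 start and 10 for the other, 15 for Tbx18 and 22 for Tbx20. Among the genes not called, T held 14, Eomes 8, and Tbx4 and Tbx6 held 6 each, beside a median of 6 over all 32851 promoters. These are counts in 7 genes, and T, which was not called, stood close to Tbx18.

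Short motifs were also searched on both strands of the same windows. The retinoid half-site AGGTCA was in none of the 8 windows and in 14% of all promoters, and the related AGTTCA was in that of T, at -116 to -111 from the start, and in 11.8% of all. A direct pair of AGGTCA with 5 bases between was in none of the 8 and in 0.00913% of all, and the T-box site AGGTGTGA was in none of the 8 and in 1.12% of all. TATAAA lay at -43 to -38 from the start of Tbx6 and, on the opposite strand, at -85 to -80 from that of Tbx4, and in none of the windows of Tbx1, Tbx18 and Tbx20 (12.4% of all). CCAAT was in the promoters of T, Eomes and Tbx18 (33.8% of all), and GGGCGG in those of T, Tbx1, Tbx4 and Tbx20 (32.7% of all). At 1 position in T the letters of CCAAT and GGGCGG overlapped.

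The 4 RA-treated arrays differed among themselves in which T-box genes were high. Eomes, Tbx1, Tbx4 and Tbx6 were higher in replicates 1 and 2 than in 3 and 4, Tbx4 and Tbx6 within less than 1 log2 unit. Tbx2, Tbx5 and Tbx18 were the reverse, lowest in replicate 2 and higher in replicates 3 and 4 than in 1 and 2. T, Tbx15 and Tbx20 followed neither order. T was highest in replicate 2 and lowest in replicate 1, and Tbx15 and Tbx20 were highest in replicate 1 and lowest in replicate 2. The slides do not divide the arrays in this way, because RA-treated replicates 1 and 4 were on slide 1 and replicates 2 and 3 on slide 2.

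Fgf8, which is expressed in the primitive streak and was picked out after its values were seen, was like Eomes highest in replicate 2 and next in replicate 1. It read -1.30, 0.57, -3.33 and -3.15 in RA-treated replicates 1 to 4, beside -3.25, -3.38, -3.74 and -2.94 in untreated cells, and was not called (log2 fold change 1.53 ± 0.78, SE, adjusted p = 0.161). Other gene lists differed between the same arrays. The summed level of the 8 ES cell genes, each taken on the linear scale relative to the 75th percentile, was 68.4, 117, 45.0 and 42.6 in RA-treated replicates 1 to 4, and 447 to 637 in untreated cells. That of the 6 RA response genes was 93.0, 104, 165 and 143, against 4.95 to 8.48 untreated. The ES cell sum, most of it from Dppa5a on each RA-treated array, was higher in replicates 1 and 2, and 2 of its 8 genes, Klf4 and Zfp42, did not share that order. The sum of the 6 muscle genes was 447, 417, 267 and 238 and that of the 8 mesenchyme genes 40.3, 37.8, 21.7 and 28.3. Both sums were also higher in replicates 1 and 2, and of the muscle genes Myh6 did not share that order. Most of the mesenchyme sum came from Col1a2 on each RA-treated array, and Col3a1, Twist1, Twist2, Pdgfrb and Postn did not share that order. The sum of the heart list was 17.2, 10.9, 21.6 and 20.3 and that of the primitive endoderm list 33.7, 22.9, 39.1 and 35.4. Both sums were lowest in replicate 2 and higher in replicates 3 and 4, the order of Tbx2, Tbx5 and Tbx18. Wt1 and Gata6 gave the largest parts of the heart sum on each RA-treated array. Of the heart genes well above background there, Wt1, Hand2, Tcf21 and Myl7 had this order. Hand1 and Nkx2-5 were higher in replicates 1 and 2 instead. Foxa2 gave the largest part of the endoderm sum. No other endoderm gene had this order, and Dab2 and Sox7 were higher in replicates 1 and 2. The part of these differences in the T-box values was not tested.

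**Figure D3:**
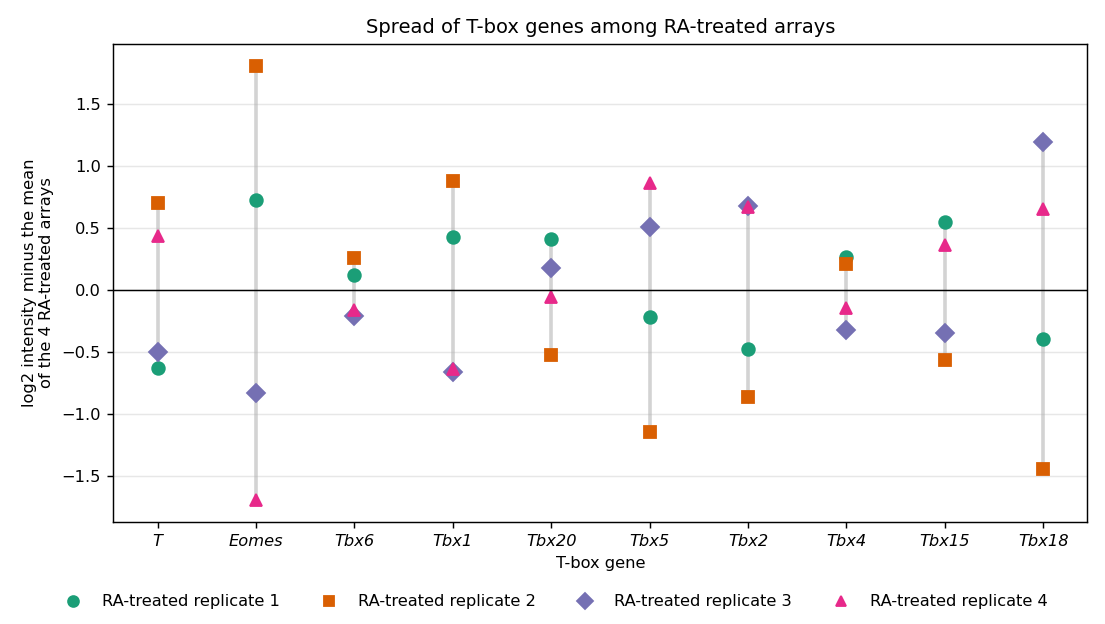
Log2 intensity of each T-box gene on each of the 4 RA-treated arrays, minus the mean of the 4 (vertical axis), with 1 symbol and colour for each replicate and a grey bar from lowest to highest. Replicates 1 and 2 are above the mean for Eomes, Tbx1, Tbx4 and Tbx6 and below it for Tbx5, Tbx2 and Tbx18.

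The array also holds 7 further T-box genes, of which 4 were called lower, 1 higher and 2 neither. Over all genes 22.1% were called lower and 13.9% higher. For 5 of them every RA-treated array lay below every untreated one, as for 25.2% of all genes. Tbx3, which supports self-renewal of ES cells, read 4.86, 4.53, 4.32 and 4.44 in untreated cells and 3.84, 3.06, 3.73 and 3.36 after RA. It fell by 1.04 ± 0.21 (SE) on the log2 scale (adjusted p = 0.00436), with no overlap. Its neighbour on chromosome 5 is Tbx5, again with no protein-coding gene between them, and that gene rose.

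Mga, a large protein with both a T-box and a helix-loop-helix domain that forms part of a Polycomb complex, read 1.73, 1.61, 1.05 and 1.57 in untreated cells and 0.22, 0.42, 0.31 and 0.14 after RA. It fell by 1.22 ± 0.18 (SE) on the log2 scale (adjusted p = 0.000722), and the groups did not overlap. Tbx21, the T-bet of T helper cells, read -2.78, -3.00, -2.57 and -3.09 in untreated cells and was dim on all 4 arrays after RA, at -5.98, -5.18, -6.16 and -5.87, a fall of at least 6.67-fold (adjusted p = 2.66e-05). Tbx22, a gene of the palate, read -0.14, -1.48, -1.39 and -2.13 in untreated cells and -2.84, -2.96, -3.96 and -2.39 after RA. It fell by 1.75 ± 0.46 (SE) on the log2 scale by its bright probe (adjusted p = 0.0151). That probe holds an 18-base run of alternating G and A, and the other Tbx22 probe was well above background on no array. Whether the change belongs to the Tbx22 transcript was not tested.

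Tbr1, a factor of cortical neurons, was the 1 further gene that rose. It was dim in untreated cells, at -5.86, -7.60, -6.29 and -7.19, and read -3.45, -3.90, -3.64 and -2.97 after RA, an increase of at least 3.86-fold (adjusted p = 0.000224), while its other probe, at another place in the gene, was well above background on no array. Tbx10 had all RA-treated values below the untreated ones (-3.46, -3.47, -3.85 and -3.83 against -2.66, -3.07, -3.30 and -3.28) and an adjusted p of 0.0438, but its fold of 1.49 does not reach the limit. Tbx19, the pituitary factor Tpit, was well above background on no array, with values from -7.65 to -6.33 untreated and from -7.89 to -7.07 after RA.

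The genes around the T-box factors were grouped by the tissue in which they work. These lists were chosen with earlier results of these data known, and none was tested as a set. Of 10 inducing signals, 4 fell and 1 rose, against 22.1% lower and 13.9% higher over all genes. Nodal, the signal that induces Eomes and T, fell by 4.34 ± 0.32 (SE) on the log2 scale (adjusted p = 2e-05), and its co-receptor Tdgf1 fell by 6.30 ± 0.50 (adjusted p = 2.59e-05). Gdf3 fell by 5.73 ± 0.45 and Fgf4 fell by 6.08 ± 0.73 on the same scale. The 1 that rose, Wnt3, had overlapping groups and was not called after quantile normalization. Tdgf1 and Fgf4 are also ES cell genes, so that the list is not separate from that one. Bmp4 and Wnt8a were among the 5 that were not called.

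Of 10 genes of the primitive streak, 4 fell and 1 rose, beside 22.1% lower and 13.9% higher over all genes. On the log2 scale Mesp2 fell by 2.89 ± 0.32 (SE, adjusted p = 0.000159), Gsc fell by 1.95 ± 0.29 (adjusted p = 0.000759), and Mesp1 fell by at least 1.52-fold (adjusted p = 3.35e-06). The fourth, Mixl1, was well above background on no array. The number that fell was 2 under 3 alternatives, normexp with quantile normalization, the authors' values and the filter on dim probes, and the number that rose was 2 under normexp and under that filter. Pdgfra, a receptor also common in mesenchyme, rose by 2.82 ± 0.29 on the log2 scale (adjusted p = 0.000109). Of 10 genes of paraxial mesoderm, the tissue of Tbx6, 6 fell and 1 rose, with Mesp2 and Msgn1 shared with the primitive streak list. On the log2 scale Tcf15 fell by 4.03 ± 0.49 (adjusted p = 0.000259) and Dll3 fell by 2.10 ± 0.18 (adjusted p = 4.12e-05), and Meox1, well above background on 1 of 4 untreated arrays, rose with an adjusted p of 9.13e-05. Msgn1, a direct target of Tbx6 and T, was well above background on no array.

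Of 15 partners and targets of the cardiac T-box factors, 10 rose and 1 fell, beside 13.9% higher and 22.1% lower over all genes. Nkx2-5, the partner of Tbx5 and Tbx20, rose 10.6-fold (log2 fold change 3.40 ± 0.18, SE, adjusted p = 4.74e-06). Hand2 rose at least 55.9-fold (adjusted p = 1.83e-05), Hand1, well above background on 3 of 4 untreated arrays, 20.4-fold (adjusted p = 0.000204) and the epicardial gene Tcf21 at least 4.64-fold (adjusted p = 0.00479). Bmp10 was the 1 that fell, and none fell under 4 alternatives, those with normexp, the authors' values or the filter on dim probes. Hcn4, Gja5 and Mef2c were well above background on no array.

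Of 11 genes of limb and skeleton, 9 rose and none fell by limma, beside 13.9% higher and 22.1% lower over all genes. Prrx1 rose at least 4.90-fold (adjusted p = 6.68e-05), Prrx2 17.6-fold (adjusted p = 4.13e-06) and Msx2 14.8-fold (adjusted p = 1.17e-05), all of them genes of limb and head mesenchyme, and Hand2 is again in this list. Of 8 pharyngeal genes, 6 rose and none fell, with Isl1 shared with the heart list and Fgf10 with that of limb and skeleton. Foxc1 rose at least 38.2-fold (adjusted p = 1.12e-06), Ripply3, a corepressor that binds Tbx1, 9.36-fold (adjusted p = 0.000468) and Foxc2, well above background on 3 of 4 untreated arrays, 6.62-fold (adjusted p = 0.00419). Eya1 was not called. The median log2 fold change was 1.61 for the heart list, 3.20 for limb and skeleton and 2.25 for the pharynx, and -0.57, -0.74 and -0.98 for the inducing signals, the primitive streak and the paraxial mesoderm. With dim genes at their bound, or at 0 where there is none, limb and skeleton came to 2.81 and the primitive streak to -0.03, and the other medians did not move.

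**Figure D4:**
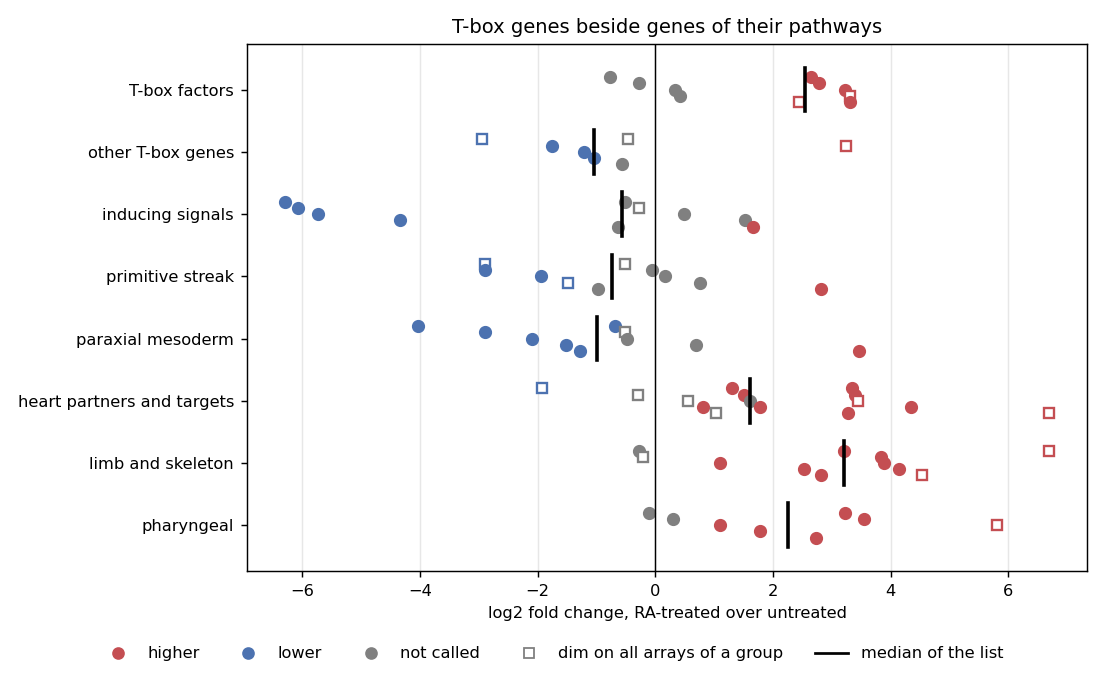
Log2 fold change of RA-treated over untreated cells (horizontal axis) of the T-box genes and of each gene of 7 lists, with red for genes called higher, blue for lower, grey for not called, open squares for genes dim on all arrays of a condition and black bars at the medians. The medians of the heart, limb and pharyngeal lists are above 0, and those of the inducing signals, primitive streak and paraxial mesoderm are below 0, the streak at -0.74, or -0.03 with dim genes at their bound.

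Markers of several cell types rose in the same RA-treated cultures, where 13.9% of all genes were called higher and 22.1% lower. Of 8 genes of mesenchyme or fibroblasts 7 rose, with Col3a1 (well above background on 3 of 4 untreated arrays) up 132-fold, and Thy1 was not called. Their summed level was between 1.29 and 2.16 in untreated cells and between 21.7 and 40.3 after RA. Of 6 muscle genes 5 rose, led by Acta2 at 583-fold, and Myh6 was not called. Actc1, also among the 5, was well above background on 1 of 4 untreated arrays, so no fold is given for it. The sum was between 3.20 and 5.64 in untreated cells and between 238 and 447 after RA. All 8 genes of primitive endoderm rose, including Gata4 and Gata6, which are also in the heart list, and their sum was between 1.29 and 2.26 in untreated cells and between 22.9 and 39.1 after RA. Of 6 trophoblast genes 5 rose, with Hand1 again shared with the heart list and Ascl2 not called, and the sum was between 4.41 and 5.87 in untreated cells and between 20.8 and 27.4 after RA.

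Of 6 neural genes 1 rose and 1 fell. Nes rose 4.29-fold (adjusted p = 2e-05), Tubb3 fell by 2.22 ± 0.31 (SE) on the log2 scale (adjusted p = 0.000521) and Sox1, Pax6 and Neurog2 were among those not called. All 6 RA response genes rose, with Rarb up 148-fold. Each of the mesenchyme, muscle, endoderm and trophoblast sums was above all untreated values on every RA-treated array. So was the neural sum, at 6.07 to 9.66 untreated and 10.4 to 11.8 after RA. Most of the neural sum came from Tubb3 on each untreated array and from Nes on each RA-treated array. The part of these cell types in the T-box results was not tested.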

How the data were processed

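Total RNA of 8 E14 ES cell cultures was labelled with 1 dye from an oligo-dT primer and hybridized to Agilent 8x60K arrays, which lie on 2 slides that each hold 2 untreated and 2 RA-treated samples. The authors deposited Feature Extraction files (version 10.7.3.1) of each array, in which the processed intensity of a spot is corrected for background but not normalized between arrays. They also deposited a table of processed log2 values, used here as an alternative. The thresholds are those of the study's methods, which name no normalization.

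In R (version 4.3.3) log2 processed intensities minus the 75th percentile of each array over 59305 non-control spots were used. The 3671 control spots were dropped, as were 124 to 145 outlier spots per array, and spots of a probe were averaged. A gene took its probe with the highest mean. The test was limma (version 3.58.1; lmFit, eBayes), with Benjamini-Hochberg adjustment over all 55681 probes. A lower bound sets the brighter condition's mean against the other's mean of, per array, the higher of the probe's own signal and the lowest signal well above background. Probe positions (mm9) and gene names are those printed in these files. Exon or UTR annotation on this build was not used here. On simulated data for this comparison, 157 of 200 probes changed by 2 on the log2 scale were recovered among 55640 probes, with 11 false calls. A far smaller share of probes changed there than the 34.6% called here. The simulation checks the fit, and its rates do not carry over to these arrays.

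The main fit did not pair the cultures, and whether the replicate numbers in the labels do so is not certain. Deviations of same-numbered arrays correlated at 0.187, 0.189, 0.104 and 0.152 over 27508 probes. Those of differently numbered arrays reached 0.142, above the value for replicate 3. All 4 same-numbered values exceeded 0.1, the limit set for pairing, and so did 0.142 and 0.129 of differently numbered arrays. Same-numbered arrays share a slide for replicates 1 and 2 only, so pairing is partly mixed with slide. A fit with the replicate block was therefore an alternative. The number of arrays limits the precision. The T-box genes and all gene lists were chosen with earlier results of these data known. All T-box genes were named, and of each other list up to 4 called genes with the largest change and no overlap between conditions. Fgf8, Bmp4, Wnt8a, Klf4, Zfp42, Dppa5a, Wnt3 and Bmp10 (the last 2 called, with overlapping conditions) were added after their values were seen. So were genes named for their part in a sum or their order among RA-treated arrays, and genes named only as not called, dim or shared between lists. Some genes of the lists are not reported here by name.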

Additional observations from a re-analysis of the deposited data

How the results depend on the processing

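The number of T-box genes called higher was 6 in most alternatives. It was 5 with normexp background correction and 5 when only probes well above background on at least 4 arrays were tested, which leaves out Tbx5, and 4 within slide 2, where Tbx5 (2.24) and Tbx18 (2.89) were not called. None was called lower under any alternative. The number of T-box probes called was 8, and it was 5 with normexp, 5 with the filter on dim probes, which removes probes by its construction, 6 with normexp and quantile normalization, with the authors' values and within slide 2, and 9 with no limit on the fold. With each array left out in turn 6 genes were called higher each time, and 8 to 9 probes were called. The replicate block, with the numbers taken as pairs, changed no call among the T-box genes (6 higher, 0 lower, 8 probes). Among the genes that were not called, 3 values changed sign: Eomes to -0.18 without RA-treated replicate 2 (range over single arrays left out -0.18 to 0.99), Tbx4 to -0.033 within slide 1, and Tbx6 to 0.044 without untreated replicate 2 (range -0.57 to 0.044). The other 173 values of single genes under alternatives kept their direction and their side of the threshold. Of the list counts under alternatives, 10 moved by over 1.5 times, each from a count of 4 or fewer. The causes were not tested. Genes near background, above all Tbx5 and the 2 dimmer Tbx20 probes, can be given a direction but no reliable size. No value of a group of 4 arrays lay apart from the other 3 by Dixon's criterion in the 46 groups examined, where chance gives about 2.3.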
